A study of Mus musculus with 2 samples.

Results

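The nuclear genes of the respiratory chain were followed in keratinocytes sorted from mouse dorsal skin. They were taken by name: subunits of complex I (Nduf), complex II (Sdh), complex III (Uqcr and Cyc1), complex IV (Cox4 to Cox8) and complex V (Atp5). The rule found 92 of the 50559 genes listed, of which 41 belong to complex I, 4 to complex II, 9 to complex III, 21 to complex IV and 17 to complex V. The 13 subunit genes of mitochondrial DNA are not members, and neither are 16 gene names marked -ps as pseudogenes. Ndufa4 and Ndufa4l2 were placed with complex IV, where the Ndufa4 protein is found, although their names follow complex I.

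The respiratory chain passes electrons from NADH (through complex I) and succinate (through complex II) to ubiquinone, then through complex III and cytochrome c to oxygen at complex IV. Complexes I, III and IV pump protons across the inner mitochondrial membrane, and complex V, the ATP synthase, makes ATP from the return flow. Most subunits are encoded in the nucleus, translated in the cytosol and imported, while a few hydrophobic core subunits of all complexes but complex II come from mitochondrial DNA. Epidermal keratinocytes are known to take much of their ATP from glycolysis, and respiration in the epidermis is also known for its part in differentiation.

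The series holds 1 group of 2 libraries. Both came from mice with floxed Polr2b alleles and GFP (the label reads Polr2b.fl.fl.GFP; K14Cre), at postnatal day 21, when hair follicles rest (telogen). Polr2b encodes the second largest subunit of RNA polymerase II, and the keratin 14 promoter drives Cre in basal epidermis and its follicular derivatives. Live GFP-positive cells were sorted from digested dorsal skin, and total RNA was sequenced after ribosomal RNA removal. Both libraries share this genotype, no other genotype was analysed here, and any p-value measures only the difference between these libraries. The labels do not name the animals behind the replicates. Polr2b itself stood at 57.4 and 51.1 TPM in replicates 1 and 2, a whole-gene value that does not check recombination of the floxed part.

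Replicate 1 held 36692204 counts and replicate 2 held 33489967. Levels of different genes are compared as TPM, the count divided by the deposited gene length and scaled so that all genes sum to 1000000, and a gene was called detected at 1 CPM (counts scaled to that same total without length) or more in both libraries, which 15833 genes were. Keratinocyte markers were abundant, and basal and spinous markers were higher in replicate 2, where their summed levels were 14044 and 6345 CPM against 9797 and 3198 CPM in replicate 1. Markers of other cells were present too: 6 fibroblast markers summed to 12996 and 6433 CPM, 6 myeloid markers to 6589 and 7247 CPM, and 6 mural (pericyte and smooth muscle) markers to 340 and 190 CPM in replicates 1 and 2. By length, the myeloid median (1171 and 1078 TPM) stood above the basal (627 and 786 TPM) and spinous (316 and 556 TPM) medians. The levels below are those of the whole sorted sample and cannot be assigned to keratinocytes alone. Xist had 112587 counts in replicate 1 and 11 in replicate 2, while 4 Y-linked genes had between 0 and 1 counts in replicate 1 and 1113 to 2394 in replicate 2, counts of a female and of a male, so the libraries did not come from the same animal and sex and replicate cannot be told apart. The smallest two-sided p that sign flips of 2 libraries allow is 0.5. Levels are therefore given for each library, or as mean ± SD with n = 2, without a p-value.

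The promoters of nuclear respiratory genes are known for sites of NRF1, of GABP (an ETS-family factor, also called NRF2) and of YY1. RefSeq promoter windows on build GRCm38.p6, which run from 250 bases before to 50 bases after a gene start, were matched by symbol to 71 of the 92 members and gave 76 windows. The motifs searched on both strands were GCGCANGCG for NRF1, CCGGAAG for GABP and other ETS factors, and AANATGGCG for YY1, and matches of different motifs may overlap. Below are the 150 bases before the start of 4 members that hold more than 1 match to these motifs, and of Cox7c, which had none of them anywhere in its window. Each is written 5′ to 3′ on the gene's own strand, with matches on either strand in capitals.
Atp5h (chr11:115419920-115420069, minus strand): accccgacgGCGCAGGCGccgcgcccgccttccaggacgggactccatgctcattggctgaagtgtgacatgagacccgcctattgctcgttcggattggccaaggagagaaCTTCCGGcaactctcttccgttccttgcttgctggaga
Sdhd (chr9:50603850-50603999, minus strand): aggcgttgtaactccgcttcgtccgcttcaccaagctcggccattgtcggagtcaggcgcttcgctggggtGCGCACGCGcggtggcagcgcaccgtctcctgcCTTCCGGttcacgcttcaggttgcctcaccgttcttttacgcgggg
Cox6a1 (chr5:115348959-115349108, minus strand): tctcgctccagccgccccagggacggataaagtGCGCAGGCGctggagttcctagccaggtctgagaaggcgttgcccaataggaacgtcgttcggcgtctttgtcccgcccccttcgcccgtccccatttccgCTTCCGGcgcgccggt
Sdha (chr13:74350241-74350390, minus strand): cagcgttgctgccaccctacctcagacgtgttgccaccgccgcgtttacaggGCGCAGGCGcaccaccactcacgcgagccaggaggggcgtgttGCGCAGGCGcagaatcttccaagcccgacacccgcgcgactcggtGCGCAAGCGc
Cox7c (chr13:86046796-86046945, minus strand): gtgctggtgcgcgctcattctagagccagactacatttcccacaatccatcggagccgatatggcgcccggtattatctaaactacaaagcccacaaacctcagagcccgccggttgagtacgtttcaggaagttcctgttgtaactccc
In Atp5h (ATP synthase subunit d), Sdhd (a membrane anchor of complex II) and Cox6a1 (a subunit of complex IV), an NRF1 match stands upstream of a GABP match that reads on the opposite strand. Sdha, the flavoprotein of complex II, holds 3 NRF1 matches.

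At least 1 of the 3 motifs occurred in 40 of 76 member windows (52.6%), beside 26.7% of the 15038 windows of detected genes and 15.4% of all 32851 windows. NRF1 matches were found in 21 member windows (27.6%, exact 95% binomial interval 18.0 to 39.1%), beside 11.2% for detected genes. GABP matches were found in 17 (22.4%, interval 13.6 to 33.4%, beside 15.2%) and YY1 matches in 10 (13.2%, interval 6.49 to 22.9%, beside 4.25%). The member intervals for NRF1 and YY1 lay above the share in detected genes, and the interval for GABP included it. These intervals treat windows as independent draws, which they are not, and no test of the shares was run. The site of the ERR receptors, TCAAGGTCA, was rare everywhere, with 2 member windows (2.63%) beside 0.253% of those of detected genes. GGGCGG, the GC box of SP1, was found in 39.5% of member windows beside 57.0% for detected genes, and TATAAA in 11.8% beside 8.31%. On the forward strand alone the order was the other way for GABP (6.58% of member windows, 8.32% for detected genes), TATAAA (3.95% and 4.95%) and the ERR site (0% and 0.146%). Base composition was close, with a median GC content of 57.5% in member windows and 59.7% in those of detected genes. A match is a string of letters and not evidence of binding, and genes with several windows enter more than once.

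**Figure D1:**
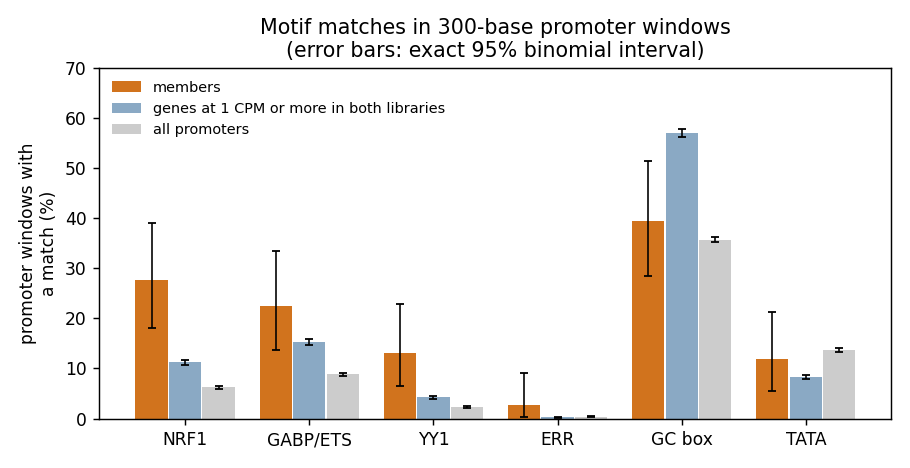
Share of promoter windows of 300 bases (y axis, %) with a match on either strand to each of 6 motifs, for 76 windows of members (orange), 15038 of detected genes (blue) and all 32851 (grey). Error bars are exact 95% binomial intervals. NRF1 matches occur in 27.6% of member windows and in 11.2% of windows of detected genes.

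The chain as a whole was well expressed. Of the 92 members, 89 had a count, 82 were detected and 64 reached 10 CPM in both libraries. The median over all 92 was 59.2 TPM in replicate 1 and 68.0 in replicate 2 (63.6 ± 6.19), at the 86.6 percentile of the detected genes, whose own median was 13.1 and 12.7 TPM. The gap depended on gene length. Under 600 bases, detected genes had medians of 36.3 and 35.4 TPM and detected members 71.3 and 76.7 TPM. From 1000 to 2000 bases these were 16.4 and 16.7 TPM, and 84.4 and 85.0 TPM. In CPM, without length, the medians were 21.1 and 22.3 for members and 18.5 and 17.7 for detected genes. Of the members, 75 stood above the median of the detected genes, and 35 were above their 90 percentile of 82.4 TPM. Within the group, levels of the detected members spanned 132-fold in replicate 1 and 138-fold in replicate 2. The order of the members was much the same in both libraries, with a Spearman rho of 0.99 across 89 members, which are not independent replicates.

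The complexes formed an upper and a lower tier. Complex II had a median of 118 and 124 TPM in replicates 1 and 2, complex III 105 and 119 TPM, and complex V 104 and 120 TPM, ranges that overlap. Complex IV followed at 57.0 and 66.0 TPM and complex I at 39.1 and 49.2 TPM, both below the upper tier in both libraries and apart from each other. Over the 15 detected members of complex IV, which leave out most of its muscle and testis forms, the median was 95.8 TPM, close to the upper tier. When the -ps names were counted as genes of their complex, the median of complex V dropped to 70.4 TPM.

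**Figure D2:**
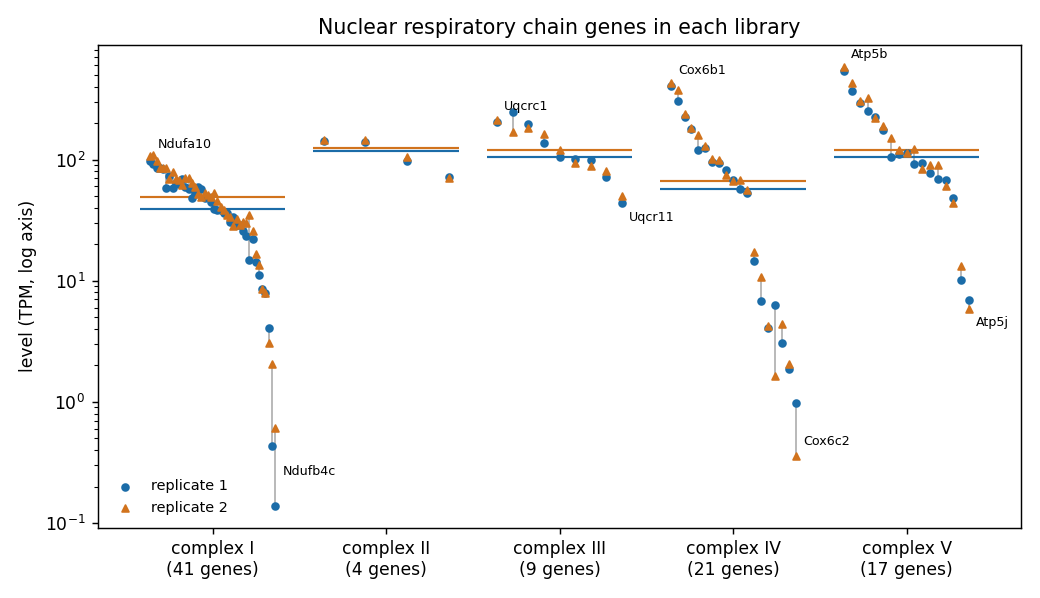
Level of each of the 89 nuclear respiratory chain genes with a count (TPM, log axis), by complex and in falling order within it, in replicate 1 (blue circles) and replicate 2 (orange triangles). Horizontal bars are the median of all genes of the complex in each library, including 3 genes without a count. Complexes II, III and V sit highest, and complexes I and IV have tails of low genes.

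Complex I takes electrons from NADH and is the largest of the 5. Its 3 highest nuclear genes encode accessory subunits: Ndufa10 at 97.7 and 106 TPM in replicates 1 and 2, Ndufb11 at 91.2 and 110 TPM, and Ndufa9 at 84.4 and 97.0 TPM. The 7 nuclear core subunits, which hold the flavin and the iron-sulfur clusters or shape the ubiquinone site, were all detected, with a median of 49.2 and 64.6 TPM beside 37.5 and 42.0 TPM for the 34 other members. Of those 34 only 30 were detected, and the rest are the copies near the floor named below, which lower their median. Ndufs7, which carries the last iron-sulfur cluster before ubiquinone, was the highest core gene at 83.9 and 85.0 TPM. Ndufv1, the flavin and NADH-binding subunit, stood at 63.7 and 69.4 TPM, and its iron-sulfur partner Ndufv2 was the lowest core gene at 28.7 and 29.0 TPM.

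Between these came Ndufs3, of the arm that reaches into the matrix, at 49.2 and 50.8 TPM. Ndufs8, with a further pair of iron-sulfur clusters, stood at 48.5 and 64.6 TPM, and Ndufs1, the largest core subunit, at 38.4 and 40.2 TPM. The core genes named here thus lay within a few-fold of each other, while the accessory genes reached much lower. Ndufb2 stood at 8.51 and 8.55 TPM (a mean of 1.83 with the longer principal transcript) and Ndufa5 at 7.92 and 7.86 TPM, although both encode structural subunits. Another group, named as copies of other subunit genes, was near the floor: Ndufa11b had 16 and 11 counts, Ndufb4b 3 and 13, Ndufb4c 1 and 4, and Ndufs6b none in either library (3 counts correspond to 0.0818 and 0.0896 CPM).

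Complex II links the citric acid cycle to the chain and has no mitochondrially encoded subunit. Its membrane anchors Sdhc (142 and 146 TPM) and Sdhd (97.1 and 105 TPM) bracketed the iron-sulfur subunit Sdhb at 139 and 144 TPM. The catalytic flavoprotein Sdha was lowest at 72.3 and 70.8 TPM in replicates 1 and 2. Sdhc and Sdhb differed by less than the spread between libraries, and Sdha was below the other members in both. This order depended on the length: with principal transcripts Sdhc was the lowest, at 57.9 and 59.6 TPM, below Sdha at 71.3 and 69.8 TPM. The principal length of Sdhc exceeds the deposited length over which its reads were counted, which lowers its level by construction.

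Complex III moves electrons from ubiquinol to cytochrome c. The core proteins of its matrix side, Uqcrc1 and Uqcrc2, stood at 204 and 213 TPM and at 101 and 94.2 TPM. The catalytic Rieske protein Uqcrfs1 was at 105 and 119 TPM and cytochrome c1, Cyc1, at 98.4 and 89.0 TPM, so both redox subunits sat near the complex's median. Among the small subunits, Uqcrb (246 and 170 TPM), the hinge protein Uqcrh (198 and 182 TPM) and Uqcr10 (136 and 163 TPM) were high. Uqcrq had 71.4 and 81.1 TPM and Uqcr11 the lowest level, 43.7 and 49.8 TPM. Cytochrome c itself, Cycs, which is not a member, stood at 31.9 and 25.6 TPM, and its testis form Cyct had no count.

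Complex IV reduces oxygen. Its highest nuclear genes were Cox6b1, which faces the intermembrane space, at 404 and 427 TPM, Cox7c at 302 and 373 TPM, and Cox7a2l, known for a role in joining complexes III and IV into supercomplexes, at 225 and 237 TPM. Cox4i1, the largest nuclear subunit, stood at 119 and 159 TPM and Cox5b at 93.2 and 98.3 TPM. Cox5a, which faces the matrix, was listed at only 14.4 and 17.1 TPM. That value rests on a deposited gene length of 3153 bases, against 645 bases for the principal transcript in GENCODE M21, and with the shorter length Cox5a reached 77.2 TPM.

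Several complex IV subunits exist in a widespread form and a form known from muscle, lung or testis, which allows a check of which set the sorted cells carried. The widespread form was higher in both libraries in 7 of 8 pairs. Cox6b1 exceeded the testis form Cox6b2 (37 and 35 counts) by 99.8- and 101-fold in TPM, and Cox8a exceeded the muscle form Cox8b (10 counts in each library) by 95.3- and 89.7-fold. Cox6a1 exceeded the muscle form Cox6a2 by 31.2- and 23.1-fold. Cox7a2, at 68.2 and 66.0 TPM, exceeded the muscle form Cox7a1, at 6.75 and 10.6 TPM, by only 10.1- and 6.20-fold, the smallest difference among these 7 pairs. The testis forms Cox7b2 and Cox8c had no count, so that Cox7b and Cox8a were at least 183- and 392-fold higher in the library with the smaller bound, from a floor of 3 counts per library. Cox6c2, a further named copy, had 6 and 2 counts. The summed level of 6 skeletal muscle markers was 62.9 and 49.4 CPM in replicates 1 and 2, and its part in the muscle forms was not tested.

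The pair of Ndufa4 and Ndufa4l2 was the exception. Ndufa4 had 390 and 377 counts, or 53.0 and 56.2 TPM, and Ndufa4l2, a paralog known to be induced by hypoxia and to be high in pericytes, had 973 and 1055 counts, or 57.0 and 67.9 TPM. Ndufa4l2 thus made up 51.8 and 54.7% of the pair, and the log2 ratio of Ndufa4 over Ndufa4l2 was -0.19 ± 0.12. The levels lay close together by deposited length. With principal transcripts Ndufa4 stood at 43.2 and 45.8 TPM and Ndufa4l2 at 70.3 and 83.7 TPM, and without scaling by length (CPM) the log2 ratio was -1.39. Between the libraries Ndufa4l2 was higher in replicate 2 (log2 ratio 0.24), where the mural markers were lower (median log2 ratio -0.91 over 5 tested). Cox4i2, the oxygen-responsive partner of Cox4i1 that is also known from lung and mural cells, went the other way: it had 68 counts in replicate 1 and 16 in replicate 2, and Cox4i1 exceeded it 18.9-fold in replicate 1 and 97.4-fold in replicate 2. The mural marker Rgs5 dropped with it (log2 ratio -1.48), and the part of mural cells in either gene was not tested.

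**Figure D3:**
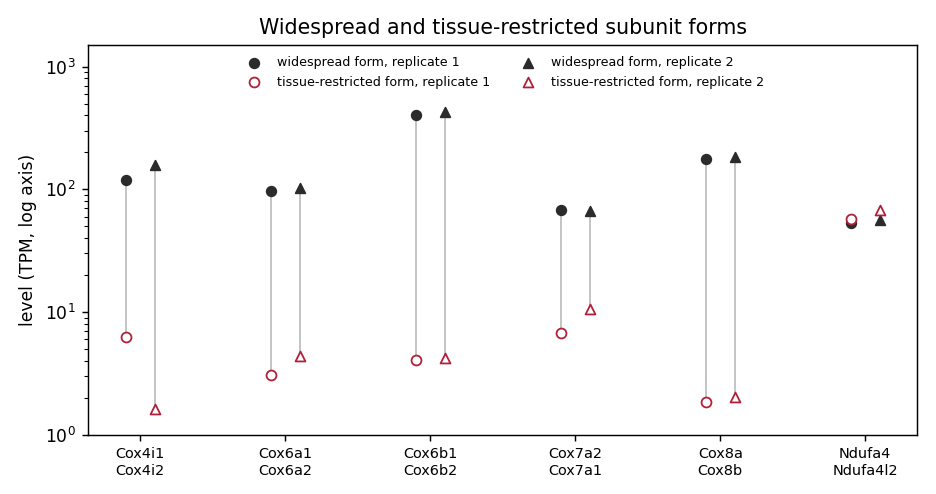
Levels (TPM, log axis) of widespread (filled) and tissue-restricted (open) forms of 6 complex IV subunit pairs in replicate 1 (circles) and replicate 2 (triangles); Cox7b2 and Cox8c, without a count, are not drawn. The forms are separated by 6.20-fold or more in 5 pairs, and in the Ndufa4 pair they lie close together by deposited length.

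Complex V held the most abundant member, the catalytic beta subunit Atp5b, at 534 and 581 TPM. Within the complex it was followed by its partner alpha, Atp5a1, at 369 and 431 TPM, and by Atp5o, the stalk protein known as OSCP, at 294 and 303 TPM. This order depended on the length: with principal transcripts Atp5g3, a c-ring gene, stood at 436 and 425 TPM. Atp5a1 was then at 363 and 425 TPM and Atp5o at 271 and 279 TPM. Atp5b and Atp5a1 proteins alternate in a ring in equal number, and Atp5b was the higher of the RNAs in both libraries. The other rotor and head subunits were lower: gamma (Atp5c1) at 112 and 120 TPM, delta (Atp5d) at 92.5 and 121 TPM, and epsilon (Atp5e) at 113 and 113 TPM. In the membrane part, Atp5j2 (subunit f) stood at 250 and 321 TPM (a mean of 128 with its longer principal transcript) and Atp5k (subunit e) at 10.1 and 13.2 TPM, although both are structural. The lowest member was Atp5j, coupling factor 6, at 6.94 and 5.82 TPM; with 809 bases for its principal transcript in place of the deposited 4137, it reached 32.6 TPM. The inhibitor that blocks ATP hydrolysis, listed as Atpif1 and not a member, stood at 113 and 135 TPM.

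The proton-driven c-ring is built from identical mature c subunits, which 3 genes encode with different import peptides. Atp5g3 was highest at 226 and 220 TPM, Atp5g2 followed at 104 and 150 TPM, and Atp5g1 at 69.7 and 90.4 TPM. Their shares of the summed c-ring level were 52.1 ± 6.12%, 29.3 ± 4.56% and 18.5 ± 1.57%. The order held in each library, but the shares depended on the length assigned to each gene: with principal transcripts they were 77.0%, 20.0% and 3.02%. For Atp5g1 the principal transcript has 4715 bases against a deposited 998, over which its reads were counted. Its smaller share with that length follows by construction.

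The partners from mitochondrial DNA spread more widely than the nuclear genes. The sum of the 13 mitochondrial subunit genes was 4.36 and 3.25 times the sum of all nuclear members in TPM (3.81 ± 0.784). COX1, the catalytic subunit of complex IV, stood at 16362 and 14274 TPM, ND1 of complex I at 5379 and 3418 TPM, and CYTB of complex III at 4372 and 3463 TPM. These were 287- and 216-fold, 137- and 69.4-fold, and 41.4- and 29.1-fold the nuclear median of their own complexes. Mitochondrial genes were not uniformly high, however. A group of 7 (CYTB, COX1 and all complex I genes but ND3 and ND4L) lay between 1352 and 15318 TPM, whereas the other 6, among them COX2, COX3 and both genes of complex V, lay between 3.56 and 63.1 TPM, a grouping made after their values were seen. ATP6, the membrane channel of complex V, had 29.1 and 22.9 TPM, below the nuclear median of its complex. Reads that also match nuclear copies may have been treated differently from unique reads; the setting is not stated, and its part in the low levels was not tested.

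The libraries were then set against each other, gene by gene, with the exact two-sided binomial test on counts against the ratio of library totals (Benjamini-Hochberg adjustment over 23690 genes with 10 or more counts). This covers counting error only and compares the 2 libraries, not conditions. Of 87 members tested, 40 were called (46.0%), beside 44.1% of all tested genes. Among detected genes, which are more deeply counted, 38 of 82 members were called (46.3%), beside 54.3% of all 15833. Their direction leaned to replicate 2: 32 were higher there and 8 lower, while over all tested genes 16.9% were called higher and 27.2% lower (3993 and 6443 genes). On the log2 scale the members had a median ratio (replicate 2 over replicate 1) of 0.10 and all tested genes of -0.07, and 84 of 87 members lay within 1.5-fold, beside 85.0% of all tested genes. With TMM library factors (the scaling of edgeR) the calls were 47 higher and 2 lower among members, and 5508 higher and 4961 lower among all genes. edgeR's exact test, which includes a spread between libraries estimated from these same libraries, called none of the members (3 at an unadjusted p under 0.05) and 66 of all genes (0.279%). Lower numbers of a cell type and less RNA per cell cannot be told apart in such bulk samples. Fibroblast markers were lower in replicate 2 (median log2 ratio -0.96, 6 of 6 called) and spinous markers higher (0.74, 6 of 6 called), and their part in the members' ratios was not tested.

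By complex, complex I had 16 members called higher and 2 lower of 39 tested, with a median log2 ratio of 0.13. Complex V had 8 higher and 2 lower of 17 (median 0.10), complex IV 5 higher and 1 lower of 18 (0.07), complex III 3 higher and 3 lower of 9 (0.06), and complex II none of 4 (0.04). All of these medians were above the -0.07 of all tested genes and small beside the 1.5-fold window. Over all tested genes 16.9% were called higher and 27.2% lower, and over detected genes 22.1% and 32.2%. In 4 of the 5 F1 head genes of complex V (Atp5a1, Atp5b, Atp5c1 and Atp5d) the call was higher. These are deeply counted genes, where small ratios pass a test of counting error: Atp5b, with 14859 and 14730 counts, was called at a log2 ratio of 0.12. None of the 5 was called by edgeR's exact test. The promoters of 3 matched members lie on chromosome X: Ndufb11 was called higher (0.26), and Ndufa1 (0.09) and Cox7b (-0.13) were not called.

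**Figure D4:**
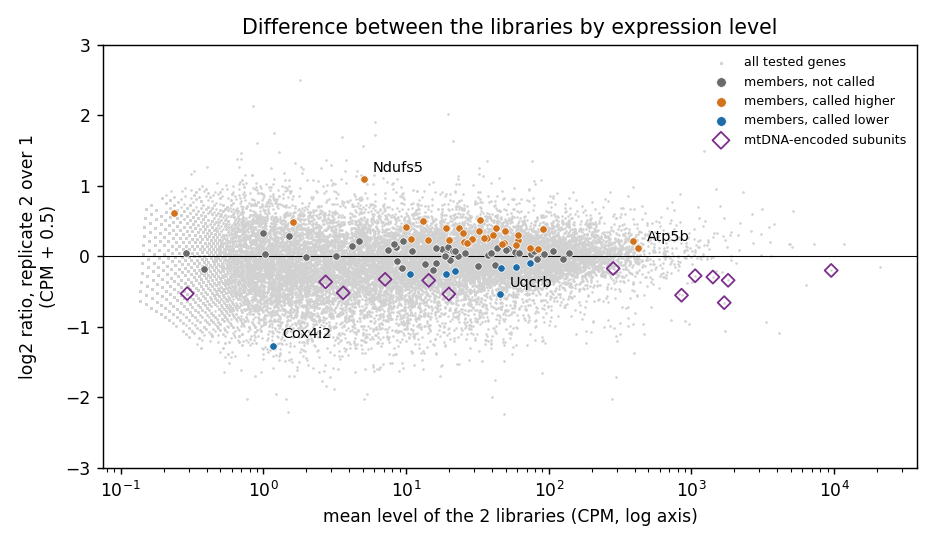
Log2 ratio of replicate 2 over replicate 1 (CPM + 0.5) against mean level (CPM, log axis) for all 23690 tested genes (grey), members (filled circles, coloured by the call of the exact binomial test) and the 13 mitochondrial subunit genes (diamonds). The axis ends at a log2 ratio of 3 in each direction, which leaves out 12 genes, none of them a member. Most members lie close to 0, with Ndufs5 and Cox4i2 far from it, and every mitochondrial subunit gene lies below 0.

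Among members called at a mean of 10 CPM or more, the largest ratios towards replicate 2 belonged to Atp5g2 (log2 ratio 0.51, adjusted p = 1.17e-16 by the exact binomial test), Ndufb4 (0.50, adjusted p = 3.15e-07), Ndufb9 (0.41, adjusted p = 8.33e-07), Cox4i1 (0.40, adjusted p = 1.25e-13) and Ndufs8 (0.40, adjusted p = 6.81e-08). They come from 3 complexes and include an isoform of the c-ring, 2 accessory and 1 core subunit of complex I, and the largest nuclear subunit of complex IV. Towards replicate 1 Uqcrb stood out, with 1995 and 1254 counts and a log2 ratio of -0.53 (adjusted p = 2.40e-24). The next, Ndufs4 (-0.25), Atp5j (-0.24), Ndufb5 (-0.20) and Atp5pb (-0.17), had adjusted p of 0.00398, 0.0409, 0.0150 and 0.00231, and none of these 4 kept its call with TMM or DESeq2 library factors. None of the 10 passed edgeR's exact test, where each adjusted p was 1.0.

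The widest differences were in lower-count members. Ndufs5, an accessory subunit of complex I, had 112 counts in replicate 1 and 238 in replicate 2, or 14.9 and 34.7 TPM (log2 ratio 1.10, adjusted p = 2.24e-13 by the exact binomial test and 0.348 by edgeR's exact test). The name Ndufs5-ps had 42 and 4 counts, the opposite pattern, and the log2 ratio of the summed counts was 0.72. Cox4i2 showed the largest difference towards replicate 1 (-1.27, adjusted p = 4.28e-07 by the exact binomial test and 0.203 by edgeR's exact test). Cox7a1 (46 and 66 counts, adjusted p = 0.0421) and Ndufb4b (adjusted p = 0.0254) were called higher by the exact binomial test on few counts.

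The mitochondrial subunit genes moved against the nuclear ones. Of the 13, 11 were called lower in replicate 2 by the exact binomial test and none higher, beside 27.2% and 16.9% of all tested genes, and their median log2 ratio was -0.34. It remained negative, at -0.26 with TMM and -0.27 with DESeq2 factors, where 10 were called lower. The drop ranged from -0.17 for ND6 to -0.66 for ND1, and ND3 and ATP8 were not called. edgeR's exact test called none of the 13 (0 at an unadjusted p under 0.05). The mitochondrial genes share a single genome and its long transcripts, so they are not independent of each other.

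**Figure D5:**
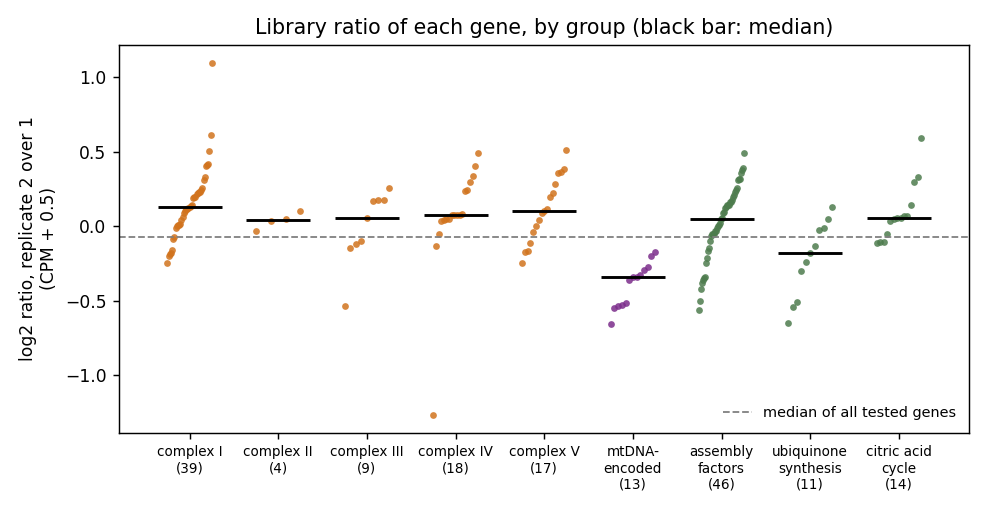
Log2 ratio of replicate 2 over replicate 1 (CPM + 0.5) of every tested gene, in rank order within each group; black bars are group medians, the dashed line is the median of all tested genes (-0.07), and the number of genes is under each name. All 5 nuclear complexes have medians above the line, and mitochondrial subunits and ubiquinone synthesis genes have medians below it.

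The genes around the chain were read from lists by role. Assembly factors, which build the complexes but are not part of them, were lower than the subunits: 46 of 48 listed in the files were detected, with a median of 9.25 and 9.22 TPM. The exact binomial test called 6 higher and 7 lower in replicate 2 (28.3% of 46 tested), beside 44.1% of all tested genes and 54.3% of detected genes. The highest by the mean of both libraries were Acad9 of complex I assembly (72.3 and 77.0 TPM) and Coa3 of complex IV assembly (73.3 and 73.5 TPM). Uqcc3 (20.9 and 30.1 TPM), Sdhaf2 (18.7 and 20.0 TPM) and Tmem242 (31.4 and 37.8 TPM) led the factors for complexes III, II and V by that mean, although in replicate 1 Uqcc2 (23.5 TPM) exceeded Uqcc3 and Sdhaf4 (18.8 TPM) exceeded Sdhaf2. At the low end stood Lyrm7, a complex III assembly factor that acts on the Rieske protein, with 46 and 48 counts, and the copper-handling factor Sco2 and Pet117 had no count.

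Ubiquinone synthesis genes had a median of 12.9 and 11.4 TPM over 11 genes, from Coq9 (37.7 and 34.3 TPM) to Coq7 (2.73 and 1.48 TPM) by mean. By the exact binomial test 6 of the 11 were called lower in replicate 2 and 1 higher (median log2 ratio -0.18), beside 27.2% lower and 16.9% higher of all tested genes, the lowest ratios being those of Coq7 (-0.65), Coq3 (-0.54) and Pdss1 (-0.51). Citric acid cycle genes resembled the subunits in level, with 14 of 14 detected at a median of 85.6 and 89.1 TPM. Of the 14, 6 were called higher and 1 lower in replicate 2, beside 16.9% higher and 27.2% lower of all tested genes. By mean, malate dehydrogenase Mdh2 was highest (174 and 214 TPM), with citrate synthase Cs above it in replicate 1 (183 and 192 TPM), and Suclg2 lowest (20.3 and 21.2 TPM).

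Among carriers of the inner membrane, the uncoupling protein homolog Ucp2 reached 1063 and 864 TPM, above every nuclear subunit gene, and was called lower in replicate 2 (log2 ratio -0.30). Ucp2 is also expressed by myeloid cells, whose markers were abundant here, and their part in its level was not tested. The ADP/ATP carrier Slc25a5 stood at 499 and 570 TPM and its muscle-type relative Slc25a4 at 51.3 and 54.9 TPM, and the germ-cell form Slc25a31 had 3 and 8 counts. The widespread carrier thus far exceeded the muscle form, as in most complex IV pairs.

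Regulators of nuclear respiratory genes were present at moderate levels, with 13 of 14 detected. Factors whose motifs were searched above stood at 61.6 and 56.1 TPM (Yy1), 23.0 and 19.6 TPM (Gabpa), 14.6 and 18.0 TPM (Esrra, an ERR receptor) and 6.61 and 7.74 TPM (Nrf1). Yy1 and Gabpa were called lower in replicate 2 and Esrra and Nrf1 higher, by the exact binomial test, each with a log2 ratio between -0.23 and 0.29. Gabpb1 (5.55 and 5.49 TPM) and Gabpb2 (16.3 and 16.2 TPM), which pair with Gabpa, were not called. Of the PGC-1 coactivators, Pprc1 (33.7 and 38.8 TPM) and Ppargc1b (5.04 and 5.87 TPM) were called higher, and Ppargc1a, known from muscle and brown fat, had 114 and 59 counts (0.482 and 0.274 TPM) and was called lower. Factors acting on mitochondrial DNA were Tfam (6.42 and 5.83 TPM), the RNA polymerase Polrmt (11.9 and 15.9 TPM, called higher), Tfb2m (14.8 and 12.4 TPM, called lower), Tfb1m (2.68 and 2.61 TPM) and Mterf1a (0.464 and 0.494 TPM). The calls among regulators went in both directions. Of the 92 genes tested in the lists of assembly factors, ubiquinone synthesis, citric acid cycle, carriers and regulators, edgeR's exact test called 0 (1 at an unadjusted p under 0.05).

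Most nuclear subunit genes are short, which bears on the levels above. The median deposited length of complex IV members was 545 bases and of complex I members 795 bases, against 3723 bases for detected genes. Among detected members TPM was not ranked by length (Spearman rho -0.01 in both libraries, 82 genes), while over all detected genes it was lower in longer genes (rho -0.24 and -0.25). Both are correlations across genes of the same library, which share its depth. Principal transcripts were matched for 84 members, and 69 were within 1.5-fold of the deposited length. For 5 members the deposited length was more than 2-fold longer: besides Atp5j and Cox5a, these were Ndufa11 (23.8 TPM by deposited and 116 TPM by principal length, means of both libraries), Ndufb8 (26.6 and 91.3 TPM) and Ndufa7 (55.7 and 127 TPM). For another 5 it was more than 2-fold shorter: Atp5g1 (80.0 and 16.9 TPM), Ndufb2 (8.53 and 1.83 TPM), Sdhc (144 and 58.7 TPM), Atp5j2 (285 and 128 TPM) and Ndufb4 (71.5 and 33.4 TPM). The levels of these 10 members depended most on the length used. Principal lengths rescale the same counts, so a longer one lowers and a shorter one raises the level by construction. Where the deposited length was the shorter, reads were counted only over that length, and the lower value is no equal alternative.

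Processed copies are common for respiratory genes, and reads can be shared with them. Among 84 principal transcripts, 11 had a transcript of another gene with at least 95% identity over at least 50% of their length. The largest share in this search was that of Atp5l (subunit g), where copies held 9.70 and 7.18% of the summed counts. The search did not return Ndufs5-ps (42 and 4 counts beside 112 and 238 for Ndufs5). Nor did it return Ndufa12-ps (114 and 66 beside 691 and 696 for Ndufa12). In replicate 1 both held a larger share than the copies of Atp5l. Counts of Atp5c1, Atp5g2, Atp5h, Atp5k, Atp5o, Ndufb11, Ndufs3, Ndufs6 and Uqcrb are likewise uncertain, and their copies held up to 3.39%. The treatment of multiply mapped reads is not stated, so such shares set no limit on the uncertainty. For the near-identical copy of Cox7c (99.4% identity over 58.3% of its length) no count was matched, so its share could not be measured here. For Uqcrb the log2 ratio with its copies added was -0.53, as without them. No strand setting is stated for the counting, so reads of overlapping antisense genes cannot be told apart from those of members.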

How the data were processed

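The deposited files give raw counts per gene, made with featureCounts on build mm39, per the submitters' processing notes, with a gene length in bases. The sources used here do not give the aligner, the annotation release, the strand setting or how multiply mapped reads were counted. Sequencing was paired-end, per the labels' protocols. Both samples form 1 group, with replicate numbers from the labels. No row without a gene name was present.

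CPM were scaled to all counts (1 CPM is 36.7 and 33.5 counts in replicates 1 and 2), and TPM used the deposited length over 50559 genes. Log2 ratios used CPM + 0.5. Genes were tested with the exact binomial test, with Benjamini-Hochberg adjustment at 0.05. Intervals and floors of 3 counts cover counting error only. edgeR's exact test used the common dispersion of an intercept-only fit (coefficient of variation 22.7%). The tests were checked on simulated counts. Principal transcripts (GENCODE M21, GRCm38) and blastn 2.17.0 gave lengths and copies, and promoters came from RefSeq on GRCm38.p6. Symbols are those of the files: 18 names in the lists were matched through synonyms, and 2 assembly factors (Uqcc4 and Uqcc6) were not found.

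The members and lists were chosen with earlier results of these data known. Named are the lowest and the 3 highest members of each complex, all complex I core, complex II and complex III genes, isoform pairs, c-ring and inhibitor genes, members without a count, the 5 largest ratios in each direction among members called at a mean of 10 CPM or more, the highest and lowest genes of other lists and all regulators. Other names were chosen after their values were seen. Some genes that this rule names are left out of the text. Alternatives were other library factors (TMM, DESeq2), filters, pseudocounts, lengths and each library alone. A planned comparison of isoform proteins was not run. Software was Python 3.11.15, pandas 2.3.3, scipy 1.17.1, R 4.3.3, edgeR 4.0.16 and DESeq2 1.42.0.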

Additional observations from a re-analysis of the deposited data

Results flagged for a closer look

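Of the 16 gene names marked -ps that were left out of the members, 3 carried more than 3 counts in each library, the floor set here for a gene without a count. Ndufs5-ps had 42 counts in replicate 1 and 4 in replicate 2, beside 112 and 238 for Ndufs5. Ndufa12-ps had 114 and 66 counts, beside 691 and 696 for Ndufa12, and the log2 ratio of the summed counts was 0.05 against 0.14 for Ndufa12 alone. Cox7c-ps1 had 35 and 46 counts, beside 2009 and 2260 for Cox7c. Whether these reads came from the pseudogenes or from their parent genes was not tested.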

How the results depend on the processing

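The order of widespread over restricted forms held in 7 of 8 pairs in each library alone. Among the members named for the largest library ratios, with Ndufs5 and Cox4i2, no log2 ratio reversed its sign. The other called members were not checked for this. Of the alternatives for main results, 72 stayed within the limit set for their kind of value (the spread between libraries, 1.5-fold for counts of genes, an exact interval for shares) and 33 moved beyond it. Where the limit was the spread between libraries, either library alone always lies within the SD of both, so those alternatives could not move. The 72 include these, and cases where the gene set stayed the same, as for complex II with -ps names or with detected members only. The tally is therefore no measure of robustness. Medians in TPM moved with the gene set and length. With the -ps names added, the median was 51.7 for all members, 97.3 for complex III, 54.6 for complex IV and 70.4 for complex V. With an effective length (200 bases subtracted), it was 99.5 for complex II, 91.0 for complex III and 98.3 for complex V. With principal transcript lengths, chosen after seeing the data, it was 87.9 for complex II and 72.7 for complex IV, and with detected members only it was 95.8 for complex IV. The 87.9 for complex II rests partly on the level of Sdhc, which the longer principal length lowers by construction. Each library alone gave medians from 59.2 to 68.0 for all members. Calls among members depended on the test: edgeR's exact test called 0, with 0 higher and 0 lower, and TMM and DESeq2 factors each left 2 lower calls. Median log2 ratios under TMM and DESeq2 factors were 0.18 and 0.18 for all members, 0.21 and 0.20 for complex I, 0.13 and 0.12 for complex II, 0.14 and 0.13 for complex III, 0.16 and 0.15 for complex IV, and 0.18 and 0.18 for complex V; over complex III members at 10 CPM or more it was -0.021. The rank correlation of TPM with length was 0.14 over members with a count and -0.010 over detected members. On the forward strand alone, the share of windows with a match was 6.58% for GABP, 0% for ERR, 23.7% for SP1 and 3.95% for TATA, beside 8.32%, 0.146%, 38.4% and 4.95% for detected genes. Why these values moved was not tested beyond the change of genes, lengths, factors or strand itself. Among single genes, Atp5j also missed the threshold with no filter on low counts (adjusted p = 0.0548). No paired analysis was possible because there is 1 group. Levels near 3 counts are not readable at this depth.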
